A study of Homo sapiens with 8 samples.

Results

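The genes described here are the 9 enzymes that make serine from glucose carbon and pass its side-chain carbon to folate: PHGDH, PSAT1, PSPH, SHMT1, SHMT2, MTHFD1, MTHFD1L, MTHFD2 and ALDH1L2. They were chosen by name for their place in the pathway, not by their values, out of 12235 genes listed in at least 1 library. Earlier results of these data were known when they were chosen. Where several transcripts of a gene were listed, the highest in each library was used. The measurements were ribosome profiles of HEK293T cells, a human embryonic kidney line immortalized with the SV40 large T antigen. Profiling counts the short mRNA fragments that ribosomes protect from RNase, so a level reflects the ribosomes on a coding sequence and includes both the amount of the mRNA and the ribosomes per mRNA, which cannot be told apart.

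All cells were unmodified, were grown overnight in standard medium, and were then moved to DMEM with dialyzed serum. The control medium (Suff) had cysteine, methionine, histidine, leucine and arginine restored to their normal DMEM levels. The other media lacked arginine (Arg-), leucine (Leu-) or methionine (Met-) alone, and per the labels cells were starved overnight. Each of the 4 media was profiled once with cycloheximide, a drug that stops elongating ribosomes, given to the cells before collection, and once without it. Every condition thus had 1 library, so no value has a replicate error and no difference could be tested between cultures. The series with and without the drug also differed in duplicate removal as recorded and in the lowest read count listed, so the drug and these steps cannot be told apart.

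Serine synthesis branches from glycolysis: PHGDH oxidizes 3-phosphoglycerate, PSAT1 adds an amino group from glutamate, and PSPH removes the phosphate. The SHMT enzymes then split serine into glycine and a one-carbon unit carried by tetrahydrofolate, SHMT1 in the cytosol and SHMT2 in mitochondria. In mitochondria MTHFD2 and MTHFD1L oxidize that unit and release it as formate, ALDH1L2 oxidizes it to CO2, and in the cytosol the trifunctional MTHFD1 takes up formate for purine, thymidylate and methyl group synthesis.

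Many genes of amino acid synthesis carry a C/EBP-ATF response element, a short sequence bound by ATF4, the transcription factor of the amino acid response. Its core, TGATGNAA, was sought on both strands from 250 bases before to 50 bases after the start of each promoter in the RefSeq table (GRCh38.p14). It was present in 1270 of 35116 promoters (3.62%). The table held 9 promoters of 6 of these enzymes, and the core was found in 3 of the 4 MTHFD1L promoters and in none of those of PHGDH, PSAT1, SHMT1, MTHFD1 and MTHFD2. The 3 promoters overlap and hold the same copy, at chr6:150866346-150866375 on the + strand, 129 and 90 bases before the start in 2 of them and 24 bases after it in the other. It is printed here as the only match among these enzymes, with the core in capitals.
MTHFD1L: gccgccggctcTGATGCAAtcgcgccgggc
A match describes these letters alone and does not show that a factor bound there. The absence of a match says only that the letters were not in that window.

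The cells carried their expected markers only in part. VIM and NEFM were listed in all 8 libraries, NEFL in 7, KRT18 in 6, KRT8 and LHX1 in 4 and PAX2 in 2. The blood, liver, red cell and endothelial markers PTPRC, CD3E, ALB, HBB and PECAM1 were listed in 0 libraries, while COL1A1, a fibroblast marker, was listed in 5, at between 1.59 and 20.2 RPKM. Reads on coding sequences numbered from 538222 (Met-) to 6434043 (Leu-) with cycloheximide and from 1302523 (Met-) to 3139746 (Suff) without it. Values are RPKM, reads scaled to the length of the coding sequence in kilobases and to the library's total on coding sequences, so each level is a share of its library and not an absolute amount.

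With cycloheximide the files listed no transcript with fewer than 64 reads, and without it none with fewer than 5. All 9 enzymes were listed in 6 libraries. In the Suff library with cycloheximide 7 were listed, without PSPH and ALDH1L2, and in the Met- library with cycloheximide 6 were listed, without PSPH, MTHFD1L and ALDH1L2. An enzyme that was not listed is given only as a bound, at 63 reads. The 95% intervals given with folds are exact binomial intervals of the ratio of recovered reads, and those of sums, of changes in a ratio and of folds set against each other are normal approximations on the log scale. All cover counting error only, and reads amplified by PCR without molecular identifiers are not independent molecules.

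**Figure D1:**
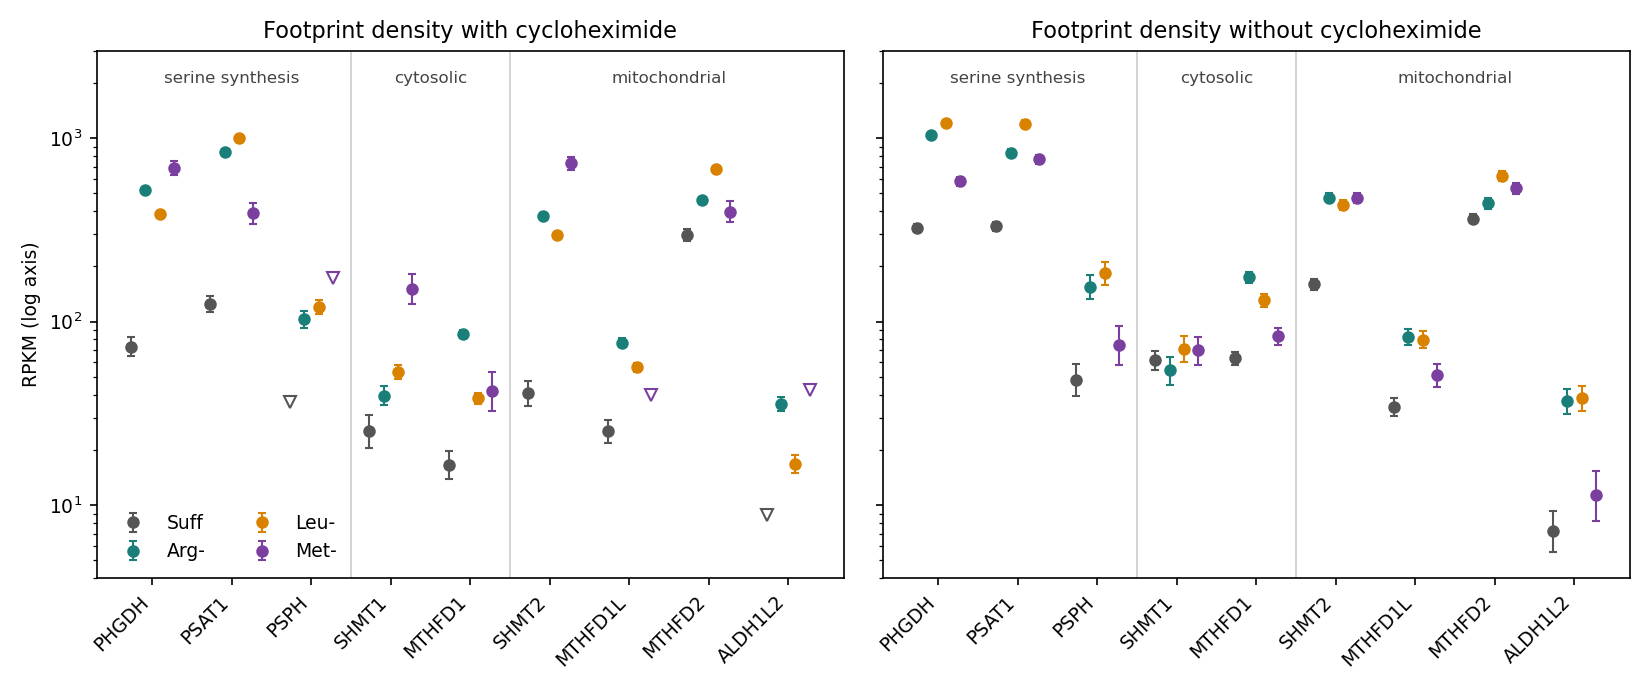
Level of each of the 9 enzymes (RPKM, log axis) in the 4 media, with and without cycloheximide. Points are single libraries, bars are 95% counting intervals, and open triangles mark the bound of an enzyme that was not listed. SHMT2 stands at 40.8 in Suff and 732.4 in Met- with cycloheximide, whereas SHMT1 without the drug lies between 54.3 and 71.3 in all media.

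PHGDH, the first enzyme of serine synthesis (chr1:119648411-119744218, + strand, GRCh38), was higher in every starved library than in Suff. With cycloheximide its level was 73.1 RPKM in Suff, 524.8 in Arg-, 388.7 in Leu- and 690.1 in Met-. Without the drug it was 326.3 in Suff, 1038.6 in Arg-, 1214.0 in Leu- and 583.2 in Met-. By RPKM Met- was thus the highest of the starved media with the drug and the lowest without it. Once centred on the median of all mRNAs, the log2 ratios to Suff with the drug were 3.06 in Arg-, 2.37 in Leu- and 2.33 in Met-. Without the drug they were 1.69, 1.75 and 0.52, so Met- was the lowest there. With the drug the centred values of Leu- and Met- lay close together, and their order was not set against counting error. The median subtracted in Met- with the drug was 0.89. The listing minimum of that library let a low mRNA be compared only where it was high, which bears on this median. The place of Met- among the centred values with the drug thus allows no reading. The folds over Suff with cycloheximide were 7.18 (6.36 to 8.14) in Arg-, 5.32 (4.71 to 6.03) in Leu- and 9.45 (8.17 to 10.9) in Met-. Without it they were 3.18 (2.99 to 3.39), 3.72 (3.50 to 3.96) and 1.79 (1.66 to 1.93). The level with cycloheximide came from a transcript that GENCODE 44 annotates as a retained intron, and the level without it came from a protein-coding transcript, so PHGDH levels do not compare across the series. With the drug the protein-coding transcript was listed only in Arg-, at 194.0 RPKM, and in Leu-, at 53.8.

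PSAT1, the aminotransferase of the pathway (chr9:78297125-78330093, + strand), was highest in Leu- in both series. With cycloheximide it stood at 124.9 RPKM in Suff, 837.9 in Arg-, 1006.3 in Leu- and 390.0 in Met-. Without it the levels were 331.9, 830.6, 1203.5 and 769.1 in the same order. No starved library fell to the level of its Suff library. The folds were 6.71 (6.02 to 7.49) in Arg-, 8.06 (7.24 to 8.99) in Leu- and 3.12 (2.64 to 3.69) in Met- with cycloheximide, and 2.50 (2.32 to 2.70), 3.63 (3.37 to 3.90) and 2.32 (2.13 to 2.52) without it. Without the drug Arg- and Met- were not separated by counting error, with a ratio of 1.08 (0.999 to 1.17).

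PSPH, the phosphatase that completes serine (chr7:56011051-56051604, - strand), was the least occupied of the 3 serine synthesis enzymes. Without cycloheximide its level was 48.4 RPKM in Suff, 154.8 in Arg-, 184.3 in Leu- and 74.7 in Met-. The folds over Suff were 3.20 (2.49 to 4.13), 3.81 (2.98 to 4.89) and 1.54 (1.12 to 2.12). With the drug it was listed at 103.5 in Arg- and 120.7 in Leu- but not in Suff, where the bound was 36.5 RPKM, so it was at least 2.84-fold higher in Arg- and at least 3.31-fold higher in Leu-. In Met- with the drug it was below 173.4 RPKM, a bound too high to give a direction. Without cycloheximide the order Leu-, Arg-, Met-, Suff held for all 3 serine synthesis enzymes, although Leu- and Arg- were not separated for PSPH, with a ratio of 1.19 (0.962 to 1.47), nor Arg- and Met- for PSAT1.

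SHMT2, the mitochondrial serine hydroxymethyltransferase (chr12:57229573-57234935, + strand), showed the largest fold among the enzymes compared in each starved medium with cycloheximide except Leu-, where PSAT1 was higher. Its level with the drug was 40.8 RPKM in Suff, 378.1 in Arg-, 298.3 in Leu- and 732.4 in Met-. The folds were 9.26 (7.89 to 10.9) in Arg-, 7.31 (6.23 to 8.63) in Leu- and 17.9 (15.0 to 21.5) in Met-. Without cycloheximide it stood at 159.6 in Suff, 475.0 in Arg-, 431.3 in Leu- and 471.3 in Met-. There the starved libraries lay close together, with folds of 2.98 (2.71 to 3.27), 2.70 (2.46 to 2.98) and 2.95 (2.68 to 3.26). Neighbours in their order by level, Arg-, Met-, Leu-, were not separated by counting error, and Arg- and Leu- were not compared directly. In Met- without the drug SHMT2 had the largest fold of the 9 enzymes.

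MTHFD2, the mitochondrial methylenetetrahydrofolate dehydrogenase (chr2:74186172-74217565, + strand), was the most occupied mitochondrial enzyme of the set in Suff, and its folds were small. With cycloheximide it was at 296.8 RPKM in Suff, 458.5 in Arg-, 678.4 in Leu- and 398.1 in Met-. Without the drug it was at 364.2, 442.2, 619.9 and 533.7. Leu- was the highest medium in both series. The folds were 1.54 (1.43 to 1.68) in Arg-, 2.29 (2.12 to 2.47) in Leu- and 1.34 (1.15 to 1.56) in Met- with cycloheximide, and 1.21 (1.11 to 1.33), 1.70 (1.56 to 1.85) and 1.47 (1.34 to 1.61) without it. Only the Leu- value with the drug reached 2-fold. In Met- with cycloheximide the log2 ratio of MTHFD2 was 0.42, below the median of all mRNAs (0.89), and it became -0.47 once centred on that median.

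MTHFD1L, the mitochondrial enzyme that releases formate (chr6:150865679-151101887, + strand), is the gene with the promoter match shown above. Its level with cycloheximide was 25.3 RPKM in Suff, 76.9 in Arg- and 56.4 in Leu-, and in Met- it was not listed, with a bound of 39.9 that lies above Suff and gives no direction. Without the drug it was at 34.3 in Suff, 82.1 in Arg-, 79.8 in Leu- and 51.2 in Met-. The folds in Arg- and Leu- were 3.04 (2.60 to 3.56) and 2.23 (1.91 to 2.61) with the drug, and 2.39 (2.06 to 2.78) and 2.32 (1.99 to 2.71) without it. Arg- and Leu- were separated by counting error only with the drug. The fold in Met- without the drug was 1.49 (1.24 to 1.79).

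ALDH1L2, the mitochondrial formyltetrahydrofolate dehydrogenase (chr12:105019784-105107643, - strand), was the least occupied of the 9 without cycloheximide. There it was at 7.24 RPKM in Suff, 37.0 in Arg-, 38.3 in Leu- and 11.4 in Met-, from 63, 165, 159 and 41 reads. Arg- and Leu- had the largest folds of any of these enzymes without the drug, 5.11 (3.80 to 6.94) and 5.29 (3.93 to 7.21). The Met- fold was 1.57 (1.03 to 2.36), from a pair whose mean was under 10 RPKM, and it is left out of the counts below. With the drug ALDH1L2 was at 35.6 in Arg- and 16.8 in Leu-, at least 4.01-fold and at least 1.89-fold above the Suff bound of 8.89 RPKM.

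SHMT1, the cytosolic serine hydroxymethyltransferase (chr17:18327860-18363563, - strand), gave different pictures in the 2 series. Without cycloheximide its level was 61.6 RPKM in Suff, 54.3 in Arg-, 71.3 in Leu- and 69.8 in Met-. By level the order was Leu-, Met-, Suff, Arg-, and no neighbours in it were separated by counting error. Its ends, Leu- and Arg-, were not compared directly. The folds over Suff were 0.881 (0.709 to 1.09), 1.16 (0.945 to 1.41) and 1.13 (0.914 to 1.40), which are the only 3 of 27 folds without the drug whose interval held 1. The log2 ratio in Met- was 0.18, and centred on the median of all mRNAs it was -0.14. With cycloheximide SHMT1 was at 25.3 in Suff, 39.5 in Arg-, 53.1 in Leu- and 151.3 in Met-. There the folds were 1.56 (1.23 to 1.99), 2.10 (1.68 to 2.64) and 5.97 (4.52 to 7.92), the last from 118 reads in Met- against 94 in Suff. At its listing minimum of 64 reads, that Met- library could list SHMT1 only if more than 2-fold above Suff.

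MTHFD1, the cytosolic trifunctional folate enzyme (chr14:64388031-64463457, + strand), was highest in Arg- in both series. With cycloheximide it was at 16.6 RPKM in Suff, 85.7 in Arg-, 38.2 in Leu- and 41.9 in Met-. Without it the levels were 63.1, 174.5, 131.1 and 83.5. Arg- exceeded the next medium 2.05-fold (1.61 to 2.65) with the drug and 1.33-fold (1.20 to 1.48) without it. The folds over Suff were 5.17 (4.31 to 6.23), 2.30 (1.91 to 2.79) and 2.52 (1.86 to 3.41) in Arg-, Leu- and Met- with cycloheximide, and 2.76 (2.49 to 3.07), 2.08 (1.85 to 2.33) and 1.32 (1.15 to 1.51) without it. Leu- and Met- were not separated with the drug, with a ratio of 1.10 (0.844 to 1.40). The Met- level with the drug came from 69 reads, near the listing minimum of 64 reads. That minimum let MTHFD1 be listed there only if more than 2-fold above Suff.

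The folds were next counted over the whole set, on the log2(RPKM + 1) scale, for genes listed in both libraries of a pair with a mean of at least 10 RPKM. In Arg- with cycloheximide 5 of 7 enzymes were at least 2-fold higher, against 16.6% of the 5074 mRNAs compared, and 0 were 2-fold lower, against 19.7%. In Leu- with cycloheximide all 7 were at least 2-fold higher, against 12.1% of 5208 mRNAs, and 0 were lower, against 7.28%. The 7 compared were the same genes in both, and SHMT1 and MTHFD2 were the pair short of 2-fold in Arg-.

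In Met- with cycloheximide 5 of 6 were at least 2-fold higher, with MTHFD2 short of it, but so were 46.7% of 1890 mRNAs, and 0 were lower against 9.79%. This library had the fewest reads, and its listing minimum of 64 reads corresponded to the highest RPKM, so a low mRNA was compared there only where it was high. SHMT1 and MTHFD1 could be listed only if more than 2-fold above Suff, so that minimum fixed their place among the 5. PHGDH and SHMT2 could be listed only if above Suff. The median log2 ratio of all mRNAs was 0.89 in this comparison, and the 6 enzymes had a median of 2.08, which is 1.19 above it. In Arg- and Leu- with the drug the medians of the enzymes were 2.30 and 1.19, and those of all mRNAs were -0.23 and 0.02.

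Without cycloheximide 7 of 9 enzymes were at least 2-fold higher in Arg-, against 8.23% of 7448 mRNAs, and 7 of 9 in Leu-, against 6.85% of 7558 mRNAs. The exceptions in both media were SHMT1 and MTHFD2. No enzyme was 2-fold lower, where 5.95% of all mRNAs in Arg- and 2.06% in Leu- were. The median log2 ratio of the enzymes was 1.45 in Arg- and 1.43 in Leu-, and that of all mRNAs was -0.02 and 0.14.

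In Met- without cycloheximide only PSAT1 and SHMT2, 2 of 8 enzymes compared, were at least 2-fold higher, against 20.2% of 7884 mRNAs, so the count lay near the background. None was lower, against 5.34%. The median of the 8 was 0.59 and that of all mRNAs 0.32, a difference of 0.27. In Arg- and Leu- without the drug the same difference was 1.48 and 1.29.

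**Figure D2:**
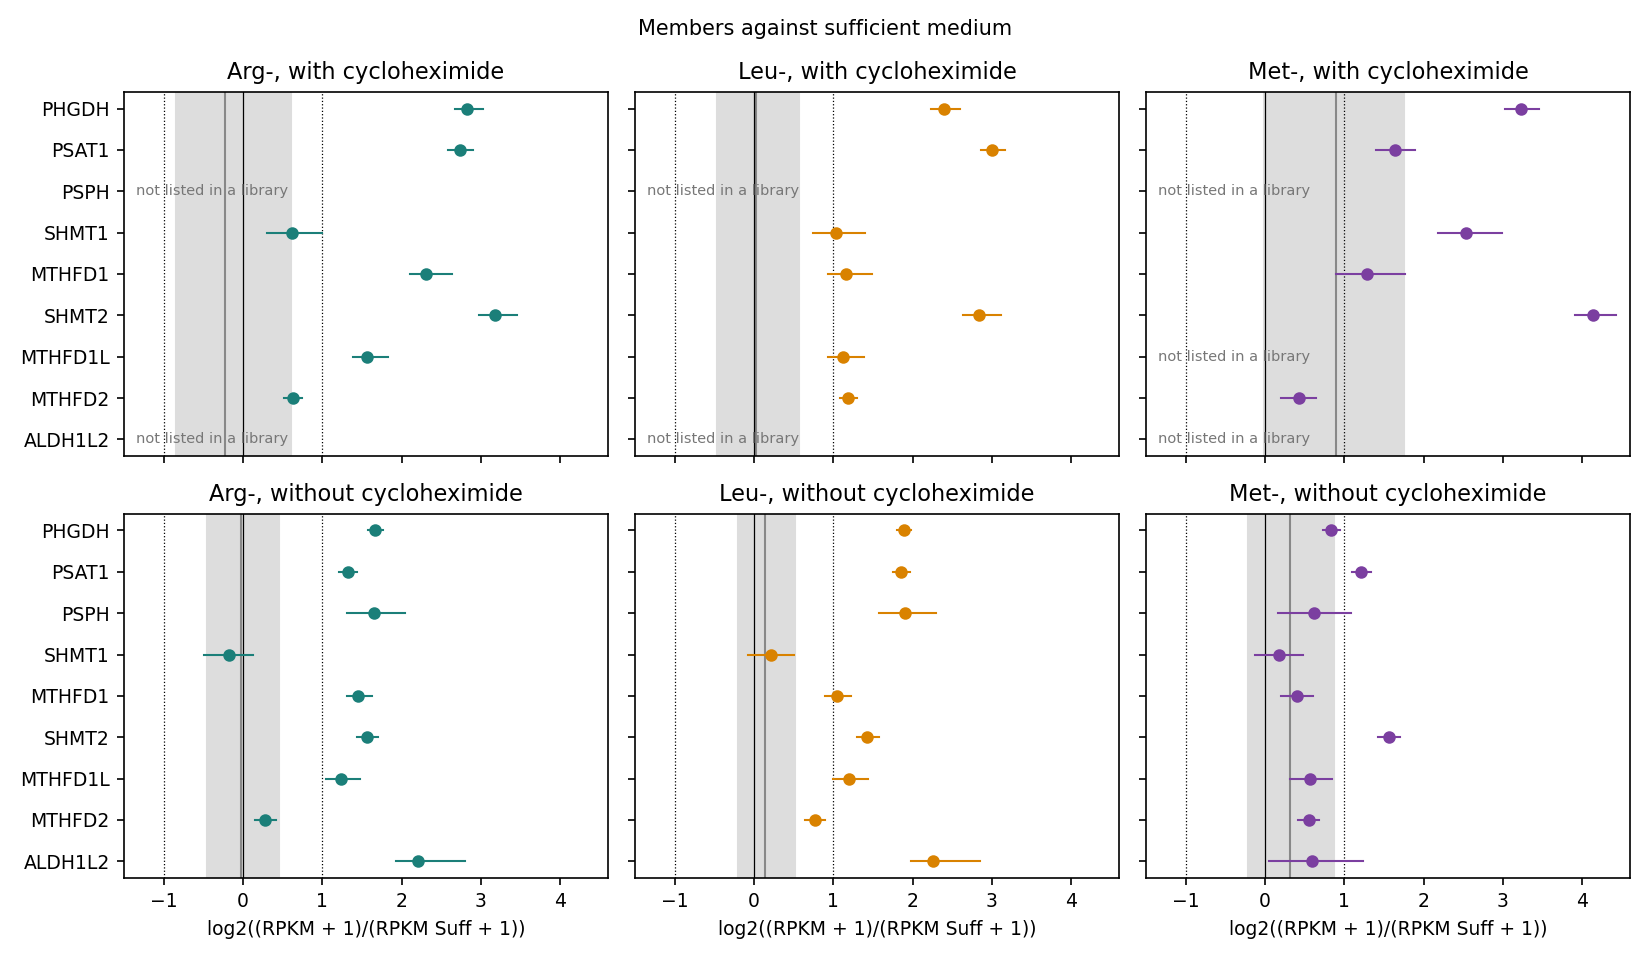
Log2 ratio of each enzyme to Suff on the log2(RPKM + 1) scale, for the 6 comparisons, with 95% counting intervals as bars. The grey band is the interquartile range of all mRNAs compared and the line in it their median. Without cycloheximide the points of Met- lie closest to the median of all mRNAs, with a median of 0.59 against 0.32.

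By role, the 3 serine synthesis enzymes had the highest median log2 ratio in each comparison. With cycloheximide that median was 2.78 in Arg-, 2.70 in Leu- and 2.43 in Met-, over PHGDH and PSAT1 alone since PSPH was not listed in Suff. The mitochondrial folate enzymes stood at 1.57, 1.19 and 2.28 and the cytosolic ones at 1.46, 1.10 and 1.91. Without the drug the serine synthesis median was 1.66 in Arg-, 1.89 in Leu- and 0.84 in Met-. The mitochondrial enzymes stood at 1.40, 1.31 and 0.56 there, and the cytosolic ones at 0.64, 0.62 and 0.29. The cytosolic median rests on SHMT1 and MTHFD1 only. In Met- with cycloheximide both could be listed only if more than 2-fold above Suff, so that median could not be low. There the serine synthesis median lay between PHGDH (3.22) and PSAT1 (1.63), and the mitochondrial one between SHMT2 (4.13) and MTHFD2 (0.42). PHGDH and SHMT2 could be listed only if above Suff, so the order of these medians in that library allows no reading.

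Together the 9 enzymes took a small share of all reads on coding sequences, larger in every starved library than in Suff. With cycloheximide the share was 0.0783% in Suff, 0.348% in Arg-, 0.335% in Leu- and 0.334% in Met-. Without the drug it was 0.195%, 0.484%, 0.556% and 0.366%. The serine synthesis enzymes held the largest part in Arg- and Leu- in both series, for example 0.341% of all reads in Leu- without cycloheximide.

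The mitochondrial and cytosolic enzymes were then compared within each library, where the library's depth and scaling cancel. SHMT1 and SHMT2 catalyse the same reaction, and their protein sequences were identical at 64.0% of 480 aligned residues. With cycloheximide SHMT2 was 1.61-fold (1.24 to 2.10) the level of SHMT1 in Suff, 9.56-fold (8.47 to 10.8) in Arg-, 5.62-fold (5.11 to 6.19) in Leu- and 4.84-fold (3.97 to 5.95) in Met-. Without the drug the ratio was 2.59 (2.25 to 2.98) in Suff, 8.75 (7.28 to 10.6) in Arg-, 6.05 (5.10 to 7.21) in Leu- and 6.75 (5.62 to 8.17) in Met-. The ratio was therefore higher than in Suff in all 6 starved libraries, and Arg- was the highest in both series, although without the drug its interval overlapped that of Met-. Against Suff it was 5.94-fold (4.48 to 7.88), 3.49-fold (2.66 to 4.58) and 3.00-fold (2.18 to 4.15) with the drug and 3.38-fold (2.69 to 4.25), 2.34-fold (1.88 to 2.90) and 2.61-fold (2.08 to 3.28) without it, in Arg-, Leu- and Met-.

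The ratio of MTHFD2 to MTHFD1 behaved otherwise. These share the dehydrogenase and cyclohydrolase steps, and 39.7% of 305 aligned residues were identical. With cycloheximide the ratio was 17.9 (14.8 to 21.7) in Suff, 5.35 (5.00 to 5.73) in Arg-, 17.8 (16.4 to 19.2) in Leu- and 9.50 (7.23 to 12.6) in Met-. Without it the ratio was 5.77 (5.23 to 6.37), 2.53 (2.29 to 2.80), 4.73 (4.27 to 5.24) and 6.39 (5.61 to 7.30). Arg- had the lowest ratio in both series, at 0.299-fold (0.246 to 0.364) the Suff ratio with the drug and 0.439-fold (0.382 to 0.504) without it. In Met- the series differed, at 0.531-fold (0.383 to 0.737) with the drug and 1.11-fold (0.942 to 1.30) without it. The Met- ratio with the drug used 69 MTHFD1 reads, near the listing minimum of 64 reads. In Leu- the ratio was at 0.993-fold (0.812 to 1.21) and 0.820-fold (0.712 to 0.944) of Suff, intervals that overlap.

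MTHFD1L and MTHFD1 share the formate-handling domain, and 61.6% of 898 aligned residues were identical. Their ratio was 1.52 (1.21 to 1.92) in Suff, 0.897 (0.828 to 0.972) in Arg- and 1.48 (1.34 to 1.62) in Leu- with cycloheximide. Without it the ratio was 0.544 (0.473 to 0.624), 0.471 (0.417 to 0.531), 0.608 (0.532 to 0.695) and 0.613 (0.511 to 0.734) in Suff, Arg-, Leu- and Met-. The ratio in Arg- was 0.588-fold (0.464 to 0.746) that in Suff with the drug. Each of the other changes against Suff had an interval that held 1.

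**Figure D3:**
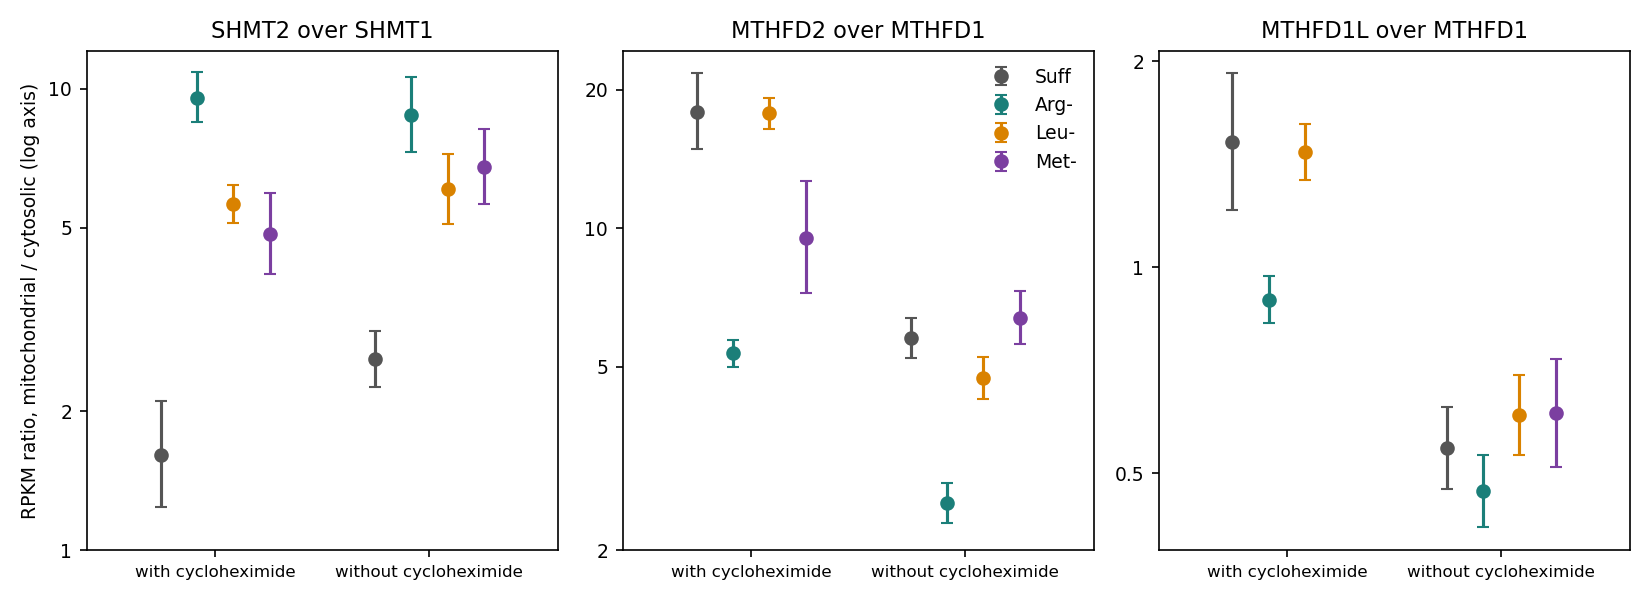
Ratio of RPKM of each mitochondrial folate enzyme to its cytosolic counterpart (log axis) in the 4 media, with and without cycloheximide. Bars are 95% counting intervals. SHMT2 over SHMT1 is lowest in Suff in both series, at 1.61 and 2.59, while MTHFD2 over MTHFD1 is lowest in Arg-, at 5.35 and 2.53.

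Summed over the enzymes listed in both libraries of a pair, the mitochondrial to cytosolic ratio did not move in 1 direction. With cycloheximide its log2 value relative to Suff was -0.25 (-0.48 to -0.01) in Arg-, 0.39 (0.15 to 0.62) in Leu- and -0.46 (-0.79 to -0.13) in Met-, where only SHMT2 and MTHFD2 stood for the mitochondria. With a minimum of 50 RPKM in place of 10 the value was -1.04 in Arg- and -0.83 in Met-. The cytosolic side was then MTHFD1 alone in Arg- and SHMT1 alone in Met-, so these values do not describe the same enzymes. Without the drug it was -0.00 (-0.16 to 0.16) in Arg-, 0.35 (0.18 to 0.52) in Leu- and 0.62 (0.43 to 0.82) in Met-. The sums were dominated by MTHFD2 in Suff, so the higher SHMT2 and the smaller folds of MTHFD2 were mixed in them. In Met- with cycloheximide both cytosolic enzymes could be listed only if more than 2-fold above Suff, and MTHFD2 had no such limit. The listing minimum thus weighs on the negative value there.

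The folds with cycloheximide exceeded those without it in 17 of the 20 cases where an enzyme had both, by the counting interval of their ratio. The same count over all mRNAs was not made. Their share at least 2-fold higher was also larger with the drug, at 16.6% against 8.23% in Arg-, 12.1% against 6.85% in Leu- and 46.7% against 20.2% in Met-. Their share 2-fold lower was larger with it too, so folds of all mRNAs were wider in both directions. The largest gaps of the enzymes were in Met-, where the fold with the drug was 6.08 times (4.97 to 7.42) that without it for SHMT2, 5.28 times (4.50 to 6.21) for PHGDH and 5.27 times (3.75 to 7.42) for SHMT1. In Met- with the drug these enzymes could be listed only if above Suff. The 3 cases whose interval held 1 were MTHFD2 in Met-, at 0.915 (0.769 to 1.09), and MTHFD1L and MTHFD1 in Leu-, at 0.959 (0.773 to 1.19) and 1.11 (0.892 to 1.38). The Suff libraries differed as well: without the drug the level in Suff was 4.47 times that with it for PHGDH, 3.91 for SHMT2, 3.80 for MTHFD1, 2.66 for PSAT1, 2.43 for SHMT1, 1.36 for MTHFD1L and 1.23 for MTHFD2. The values of PHGDH and MTHFD1L come from different transcripts in the 2 series. Since all 3 folds of a series share 1 Suff library, its values enter each of them, and their part in the gap was not tested.

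The share of each missing amino acid in the 9 proteins was also computed. Their share of leucine ran from 8.0% (PSPH) to 11.7% (PHGDH), around the median of 9.75% over 11038 proteins. Arginine was lowest in PSAT1, at 2.97%, and highest in SHMT2, at 8.13%, against a median of 5.63%. Methionine made up 3.14% of MTHFD2 and between 1.63% and 2.49% of the others, against 2.13%. All 9 lay below the median share of serine (7.60%) and above that of glycine (6.39%).

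Other genes of the pathway were counted in the same way. Of 18 further genes of the folate cycle and folate transport, 0, 0 and 2 were at least 2-fold higher and 2, 0 and 1 lower among the 9, 9 and 4 compared in Arg-, Leu- and Met- with cycloheximide. Without it 1, 1 and 2 were higher and 0, 0 and 1 lower, of 12 compared in each medium. In Met- these counts of higher genes, 2 of 4 and 2 of 12, lay near the shares of all mRNAs, 46.7% and 20.2%. The 2 of 9 lower in Arg- with the drug lay near 19.7%. Without it the 1 of 12 higher in Arg- and in Leu- lay near 8.23% and 6.85%. With the drug 16.6% and 12.1% of all mRNAs were higher in Arg- and Leu-, and 7.28% and 9.79% were lower in Leu- and Met-. Without it 5.95%, 2.06% and 5.34% were lower in Arg-, Leu- and Met-. SFXN1, the mitochondrial serine transporter, was the only gene of this list past 2-fold in the same direction in both series. Its level in Met- was 169.3 RPKM against 560.0 in Suff with the drug and 169.6 against 363.5 without it, or 0.302-fold and 0.466-fold. It was at 0.371-fold and 0.532-fold in Arg- and at 0.688-fold and 0.823-fold in Leu-, with and without the drug.

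Of 10 genes of glycine and serine breakdown only 2 were compared in Arg- and in Leu- with cycloheximide and 0 in Met-, and 4, 4 and 3 were compared without it. With the drug 1 was at least 2-fold higher and 1 lower in both Arg- and Leu-, and without it 2, 1 and 0 were higher and 1, 0 and 1 lower in Arg-, Leu- and Met-. Of all mRNAs, 16.6% were higher and 19.7% lower in Arg- with the drug, and 12.1% and 7.28% in Leu-. Without it 8.23%, 6.85% and 20.2% were higher and 5.95%, 2.06% and 5.34% lower in Arg-, Leu- and Met-. So few genes allow no reading against these shares. The higher gene with the drug, named after its values were seen, was DLD, the dihydrolipoamide dehydrogenase that serves the glycine cleavage system and the oxoacid dehydrogenases. Its folds were 7.24 (6.03 to 8.75) in Arg- and 5.10 (4.25 to 6.17) in Leu- with cycloheximide, and 1.09 (0.948 to 1.24) and 1.58 (1.39 to 1.78) without it. GCSH, the lipoyl carrier protein of the glycine cleavage system, was past 2-fold in the same direction in both series in Arg-. Its level was 61.5 RPKM against 176.1 in Suff with the drug and 134.4 against 368.5 without it, or 0.349-fold and 0.365-fold. In Leu- GCSH was at 0.389-fold with the drug and 0.601-fold without it. In Met- it was at 0.339-fold without the drug and was not listed with it. Of 7 enzymes of purine and thymidylate synthesis, which use the one-carbon units, 4 of 6 compared were at least 2-fold higher in Arg- and 4 of 6 in Leu- with cycloheximide, where 16.6% and 12.1% of all mRNAs were. Without it 0 of 7 were in both media, where the shares of all mRNAs were 8.23% and 6.85%. In Arg- without the drug their log2 ratios ran from -0.60 (PAICS) to 0.99 (GART), just short of 2-fold. The levels of GART, ATIC, PAICS and ADSL came from different transcripts in the 2 series, so these counts do not compare across the series. In Met- the counts were 0 of 2 with the drug and 1 of 7 without it, against 46.7% and 20.2% of all mRNAs.

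Genes were ranked by the root mean square difference of their 6 log2 ratios from those of MTHFD2 and MTHFD1, among 1759 genes. PSPH, MTHFD1L and ALDH1L2, not listed in all 8 libraries, were not ranked. The 5 genes nearest to each were not other enzymes of the set. For MTHFD2 they were SMC1A (0.29), AASDHPPT (0.30), CHD1L (0.30), ABHD10 (0.30) and CALU (0.30). For MTHFD1 they were PRC1 (0.29), VARS1 (0.33), HNRNPU (0.35), STT3A (0.36) and RBM5 (0.36). MTHFD1 ranked 607 in its nearness to MTHFD2, and SHMT2 ranked 1734. In nearness to MTHFD1, MTHFD2 ranked 216 and SHMT2 ranked 767. The 6 ratios share 2 Suff libraries, and the ranks describe these libraries only.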

How the data were processed

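Ribosome-protected fragments of HEK293T cells were sequenced in 8 libraries, 1 per medium and cycloheximide treatment, grouped by their labels. The authors trimmed adaptors and low-quality bases, aligned reads to the human transcriptome (GRCh38) with Bowtie allowing no mismatch, and kept uniquely mapped reads. The submitters' processing notes also name cutadapt. The annotation release, and how reads shared by transcripts of a gene were assigned, are not given in the sources used here. The authors deposited RPKM per transcript, and the names of the records without cycloheximide mention duplicate removal. Depth was recovered from the deposited RPKM: multiplied by coding length, between 97.1% and 97.4% of values fell on whole reads within 0.01 of a step. Between 96.7% and 97.1% of listed transcripts matched GENCODE 44, which gave symbols and coding lengths.

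The coding lengths of both PHGDH transcripts and that of MTHFD1 differed from GENCODE 44 and were inferred from the steps. For the PHGDH transcript used with cycloheximide, 1497 bases was the shortest of several lengths that gave whole reads, so its read counts are minimal and its intervals maximal. MTHFD1L also rested on different transcripts in the 2 series. Pseudogenes named after PSAT1 (4), PSPH (1), SHMT1 (1), MTHFD1 (1) and MTHFD2 (7) make unique mapping of these uncertain. Proteins were translated from GENCODE 44.

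Ratios were log2((RPKM + 1)/(RPKM in Suff + 1)) within a series, for genes listed in both libraries with a mean of at least 10 RPKM. Printed folds are ratios of RPKM without a pseudocount. With 1 library per condition no test and no p-value is given. Intervals of single levels are exact Poisson intervals. Alternatives were a pseudocount of 0.1, a minimum of 50 RPKM, no minimum, missing mRNAs as 0, summed transcripts, the same transcript in both libraries and centring on the median. A compartment ratio over SHMT2, MTHFD2, SHMT1 and MTHFD1 alone was added after seeing the data. The enzymes and lists were chosen with earlier results of these data known. Named genes were the 9 enzymes, genes of the other lists past 2-fold in the same direction in both series, and the 5 genes nearest to MTHFD2 and to MTHFD1. DLD, GART, ATIC, PAICS and ADSL were named after their values were seen. Depth recovery was tested on simulated data. Python 3.11.15, numpy 2.4.6, scipy 1.17.1 and matplotlib 3.10.9 were used.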

Additional observations from a re-analysis of the deposited data

Results flagged for a closer look

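The summed ratio of mitochondrial to cytosolic folate enzymes lay on opposite sides of Suff in the 2 series of Met-: its log2 value relative to Suff was -0.46 with cycloheximide and 0.62 without it. Within the series with cycloheximide it also differed in sign between starved media, at -0.25 in Arg-, 0.39 in Leu- and -0.46 in Met-. These differences between media and between series were not tested, since each condition had 1 library. In Met- with cycloheximide the cytosolic enzymes SHMT1 and MTHFD1 could be listed only if more than 2-fold above Suff, whereas MTHFD2 had no such limit. That listing minimum and a shift between the compartments cannot be told apart in the value of -0.46.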

How the results depend on the processing

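Centring on the median of all mRNAs turned the sign of 2 ratios of single enzymes, both under 2-fold: MTHFD2 in Met- with cycloheximide, from 0.42 to -0.47, and SHMT1 in Met- without it, from 0.18 to -0.14. With missing mRNAs as 0 and cycloheximide, the median log2 ratio of the enzymes was 2.74 in Arg-, 1.79 in Leu- and 1.63 in Met-. There 1 enzyme, MTHFD1L, became 2-fold lower in Met-. The 0 alone fixed that call, since its bound in Met- of 39.9 RPKM lay above its Suff level of 25.3. With a minimum of 50 RPKM and cycloheximide, all 4 enzymes still compared in Leu- were 2-fold higher. The medians were then 2.62 in Leu- and 2.53 in Met-, and the compartment value was -1.04 in Arg- and -0.83 in Met-. These alternatives compare other enzymes, and the cytosolic side held MTHFD1 alone in Arg- and SHMT1 alone in Met-. At that minimum Leu- with cycloheximide had no cytosolic enzyme, so no compartment value was obtained. Centring left 3 of 6 enzymes 2-fold higher in Met- with cycloheximide (median 1.19) and 1 of 8 without it (median 0.27). The median in Leu- without it was 1.29. The shares of all mRNAs past 2-fold under these alternatives are not given, so the counts have no background beside them. Centring moved 20 of 46 ratios of single enzymes. Summing transcripts moved 1 of 46, PHGDH in Arg- with cycloheximide, from 2.83 to 3.28. The pseudocount of 0.1 moved 0 of 46. Requiring 1 transcript within a comparison changed nothing by construction, since every ratio already used the same transcript in both libraries. The compartment ratio over 4 enzymes kept its direction in each comparison, at -0.27, 0.41, -0.46, -0.07, 0.31 and 0.64. No paired analysis was possible because each condition had 1 library. Depth limited Met- with cycloheximide most, at 538222 reads.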
